A study of Homo sapiens with 2 samples.

Results

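Cells in which mitochondrial transcripts made up at least 50% of the RNA were set apart in 2 10X Genomics libraries of human stem cell-derived beta-like cells (eBCs). The cells were chosen by their measured mitochondrial share and depth. A cell was taken as mitochondrial-dominated when its barcode held at least 1000 unique molecular identifiers (UMIs, each counted as 1 molecule) and the genes whose symbols begin with MT- held at least 50% of them. The rule found 1775 such cells among 61159 with the UMI minimum, of 62105 barcodes in the files. Their nuclear transcripts were compared with those of 57640 cells with an MT- share under 20%, called comparison cells here, after the MT- genes had been taken out of the totals. A further 1744 cells lay between the 2 limits.

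Both libraries came from the iSOX9KO line, 1 clone of Mel1-INS-GFP embryonic stem cells that carries a doxycycline-inducible Cas9 and guides against SOX9. The library labelled no DOX was left without doxycycline. The library labelled DOX received 2 ug/ml doxycycline from day 12 of the differentiation. According to the methods of the study, cells sorted for high INS-GFP were reaggregated, and live cells were sorted again before they were loaded. Each condition had 1 library and thus no replicates, which allows no test of the conditions, and every interval given is a 95% interval that covers counting error only. SOX9, the targeted gene, was not lower under DOX, at 3.52 nuclear CPM in the comparison cells labelled no DOX and 4.34 in those labelled DOX (nuclear CPM, UMIs per 1000000 UMIs outside the MT- genes). The paper reports cutting of the SOX9 locus and less SOX9 protein with doxycycline in this line, and few SOX9 transcripts in endocrine cells. Transcript counts measure neither the editing nor the protein, so they do not show whether the knockout worked. Each library is called by its label. The mitochondrial-dominated cells held 1 and 2 SOX9 UMIs, which gave 2.33 CPM (0.0590 to 13.0) and 3.81 CPM (0.461 to 13.7), so no difference in SOX9 could be seen in them at this depth.

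The mitochondrial genome encodes 13 proteins, all subunits of the respiratory chain complexes I, III and IV or of the ATP synthase (complex V). Its transcripts are made and kept inside the organelle, whereas most messenger RNA of nuclear genes is exported to the cytosol. In droplet sequencing a high mitochondrial share is widely used as a quality filter, and such cells are commonly left out. Beta cells are rich in mitochondria because insulin release is coupled to oxidative metabolism. The nuclear genome also holds copies of the mitochondrial 16S ribosomal RNA gene MT-RNR2, the MTRNR2L genes, which can take reads that stem from the mitochondrial RNA. MT-RNR2 itself is not among the 33694 genes counted.

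Among the MTRNR2L genes, MTRNR2L12, MTRNR2L1 and MTRNR2L8 held nearly all UMIs of the mitochondrial-dominated cells, and stretches of MTRNR2L12 and MTRNR2L1 are shown because their likeness to MT-RNR2 bears on these counts. Positions of these loci are those of RefSeq on GRCh38, and bases are from hg38. Over its whole aligned length MTRNR2L12 was 95.1% identical to MT-RNR2, MTRNR2L8 93.02% and MTRNR2L1 88.4%. For MTRNR2L12 and MTRNR2L1, the last 80 bases of the 3′-most gap-free part of the alignment with at least 80 bases are printed. They were chosen by position and not by likeness. They run 5′ to 3′ along the MT-RNR2 sense, above the same stretch of MT-RNR2, with bases that differ from MT-RNR2 in capitals. Each of these stretches held 3 mismatches.
MTRNR2L12 chr3:96617188-96617267 (minus strand): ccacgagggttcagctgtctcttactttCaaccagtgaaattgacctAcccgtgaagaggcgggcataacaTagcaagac
MT-RNR2 chrM:2639-2718 (plus strand): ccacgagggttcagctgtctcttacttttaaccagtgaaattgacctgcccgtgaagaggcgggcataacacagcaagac
MTRNR2L1 chr17:22524455-22524534 (plus strand): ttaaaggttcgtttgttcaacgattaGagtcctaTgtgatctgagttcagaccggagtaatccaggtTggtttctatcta
MT-RNR2 chrM:3026-3105 (plus strand): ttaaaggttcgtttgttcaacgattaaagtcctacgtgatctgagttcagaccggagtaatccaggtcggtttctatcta
Where within these loci the counted reads fell is not in the files.

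The mitochondrial-dominated cells made up 908 of 29703 cells in the library labelled no DOX, or 3.06% (exact Clopper-Pearson interval 2.86 to 3.26). In the library labelled DOX they were 867 of 31456, or 2.76% (2.58 to 2.94). The share under DOX was lower by 0.30 percentage points, with a Newcombe interval of -0.57 to -0.034. This difference turned on where the limit was set, since at 40% the shares were 3.47% and 3.46%, and at 70% they were 2.28% and 1.66%. MT- shares among the members ranged from 50.1% to 93.9% with a median of 80.03% in no DOX, and from 50% to 92.5% with a median of 74.3% in DOX. Cell numbers were low around and just above the limit and fell again at the largest shares. They were higher from 70 to 90% in no DOX and from 70 to 85% in DOX, with 194 and 66 cells from 85 to 90%. In no DOX the band from 45 to 50% held 56 cells, that from 50 to 55% held 55, that from 55 to 60% held 53, that from 80 to 85% held 229 and that from 90 to 95% held 32. In DOX the same bands held 91, 103, 89, 195 and 6 cells, and that from 60 to 65% held 59. Just outside the limit the median of non-mitochondrial UMIs was 1417.5 and 1627 per cell in no DOX and DOX, and just inside it 1239 and 1171. The 2 libraries shared 369 barcode sequences, of which 8 members in no DOX and 6 in DOX carried one.

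The rule uses the ratio of mitochondrial to other UMIs, so these counts are a description. Members held a median of 1302 MT- UMIs in no DOX and 1310 in DOX, against 1302 and 1291 in comparison cells. Their other UMIs came to a median of 324 in no DOX and 427 in DOX, against 15496.5 and 13728 in comparison cells, which is 47.8 and 32.2 times as many. Genes detected outside the mitochondrial genome had medians of 214 and 281 in members and 3942 and 3704 in comparison cells. The UMI minimum itself requires 500 MT- UMIs of a member, and with a minimum of 2000 UMIs the ratio of other UMIs was 27.1 and 17.4. Of the comparison cells, 1049 in no DOX and 754 in DOX held under 100 MT- UMIs, the opposite end of the range.

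**Figure D1:**
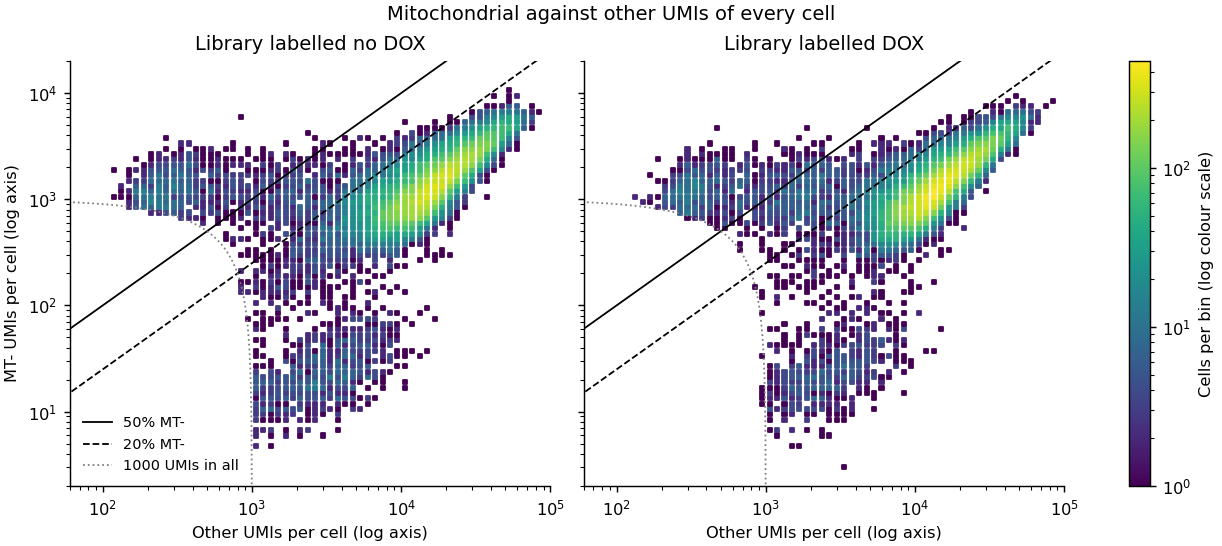
MT- UMIs of each cell (vertical, log axis) against its other UMIs (horizontal, log axis) in both libraries, with colour for cells per bin, the 50% and 20% limits as solid and dashed lines and the minimum of 1000 UMIs as a dotted line. The members form a cloud above the solid line near 1300 MT- UMIs and 324 to 427 other UMIs, level with the main cloud in MT- UMIs and left of it in other UMIs.

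The composition of the mitochondrial RNA differed little. Each MT- gene was expressed as a percentage of all MT- UMIs, which the rule does not fix. Of the 13 genes, 7 held a larger share in members than in comparison cells with intervals clear of 0 in both libraries, 5 held a smaller share, and 1 went opposite ways. The largest ratio was that of MT-ND6, the complex I subunit encoded on the strand opposite to the other MT- genes, with 0.340% in members against 0.194% in comparison cells of no DOX, and 0.399% against 0.265% in DOX. Its log2 ratios were 0.81 (0.77 to 0.86) and 0.59 (0.55 to 0.63). An alternative kept the 146 and 171 comparison cells with no more other UMIs than the 95th percentile of the members, and against these cells of low depth they were -0.094 (-0.59 to 0.46) and -0.31 (-0.79 to 0.21). Those cells held a median of 18.5 and 18 MT- UMIs, and no comparison cell held fewer than 859 and 888 other UMIs, above the members' medians, so depth was not equal and the intervals held 0.

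MT-ND4L and MT-ND5, also complex I subunits, took 1.23% and 3.64% of the MT- UMIs of members in no DOX, against 0.812% and 2.62% in comparison cells. In DOX they took 0.992% and 3.52%, against 0.721% and 2.68%. MT-CO3, a subunit of cytochrome c oxidase, took 9.92% and 9.59% in members of no DOX and DOX, against 8.70% and 8.35%. MT-CYB, the complex III subunit, and the ATP synthase subunits MT-ATP6 and MT-ATP8 also held larger shares in both libraries. Against the comparison cells of low depth, the log2 ratios in DOX were -0.74 for MT-ATP8 and -0.17 for MT-ND4L. Those cells of DOX held only 7057 MT- UMIs in all. No intervals are given for these ratios, so neither is read as a difference. The largest loss was that of MT-ND4, a complex I subunit, with 8.49% and 8.26% in members against 11.0% and 10.1%. MT-ND2, MT-ND1, MT-CO1 and MT-CO2 held smaller shares too, with log2 ratios between -0.26 and -0.014. The ratio of MT-CO2 in no DOX turned to 0.037 without Scrublet doublets and to 0.047 with every cell weighted equally, and that of MT-CO1 in DOX to 0.15 against the cells of low depth. By complex, the complex I genes together took 29.5% and 28.6% in members against 31.3% and 30.4%, and the complex IV genes 47.2% and 45.9% against 47.5% and 45.9%. MT-ND4L overlaps MT-ND4 and MT-ATP8 overlaps MT-ATP6 on chromosome M, so reads of the shared bases could have been counted for either gene, and whether the counting used the strand of the reads, on which MT-ND6 depends, is not given in the sources used here.

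**Figure D2:**
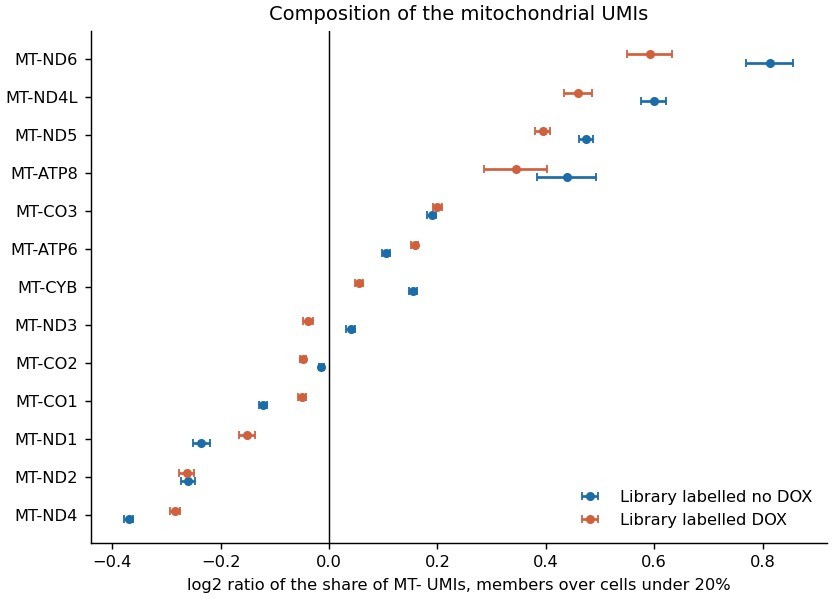
log2 ratio of each MT- gene's share of the MT- UMIs, mitochondrial-dominated over comparison cells, in both libraries, with exact conditional binomial 95% intervals as bars. The ratios run from -0.37 for MT-ND4 to 0.81 for MT-ND6 in no DOX, and MT-ND3 lies on opposite sides of 0 in the 2 libraries.

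The MTRNR2L genes led the transcripts counted as nuclear. MTRNR2L12 stood at 8126 CPM in members against 142 in comparison cells of no DOX, and at 5741 against 134 in DOX. These are log2 ratios of 5.84 (5.79 to 5.89) and 5.42 (5.36 to 5.47). MTRNR2L8 followed with log2 ratios of 4.99 and 4.66, and MTRNR2L1 with 4.88 and 4.37. MTRNR2L8 stood at 45.9 and 49 CPM in comparison cells, so it was tested only through its level in members and had to differ. Counted per cell, the differences were far smaller. A member held on average 3.84 and 3.48 MTRNR2L12 UMIs in no DOX and DOX, and a comparison cell 2.53 and 2.12. For MTRNR2L1 the averages were 1.24 and 1.06 in members against 1.58 and 1.33, and for MTRNR2L8 0.689 and 0.749 against 0.817 and 0.773. All MTRNR2L UMIs together came to 0.401% and 0.373% of the MT- UMIs in members, against 0.307% and 0.272% in comparison cells. They came to 1.22% and 0.875% of all other UMIs in members, against 0.0279% and 0.0270%. Set against MT- UMIs, MTRNR2L12 was still higher in members, by log2 ratios of 0.76 and 0.85, while MTRNR2L1 was lower, by -0.19 and -0.20, and the intervals of MTRNR2L8 held 0 in both libraries. MT-CO3 and MT-ND5, which had been named with MTRNR2L12 as markers of these cells, are themselves MT- genes and are counted by the rule.

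The nuclear transcripts of the members were close in content to those of the comparison cells. A nuclear gene was tested when its mean over the 2 groups in the 2 libraries reached 50 CPM, and was called when members and comparison cells differed by at least 2-fold (log2 ratio of 1) in the same direction in both libraries. Of 2855 genes tested, 73 were called higher in members (2.56%) and 7 lower (0.245%). The intervals of all 73 and all 7 were clear of 0 in both libraries. Since the calls required a 2-fold difference in these same counts, this follows largely from the selection and adds no support. The median log2 ratio over all genes tested was -0.11 in each library, and across genes the levels in members and comparison cells had a Spearman correlation of 0.811 in no DOX and 0.817 in DOX, given as a description since both levels come from the same library. Of the 73, 41 reached the minimum only through the members, since their level in comparison cells was under 50 CPM, and 2 of the 7 reached it only through the comparison cells.

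Next to the 3 MTRNR2L genes, the genes with the largest ratios were KIFC2, PKD1, SNHG25, COL27A1, MLXIPL, ACAP3, ARFGAP1, PILRB and LENG8. Of these 9, KIFC2, PKD1, COL27A1, ARFGAP1, PILRB and LENG8 reached the minimum only through the members, so these 6 had to differ. KIFC2, a kinesin motor, rested on 67 and 57 UMIs in members. MLXIPL encodes the glucose-responsive transcription factor ChREBP. It stood at 347 CPM (294 to 407) in members of no DOX and 504 CPM (446 to 569) in those of DOX, against 93.7 and 96.5 in comparison cells. SNHG25, a small nucleolar RNA host gene, stood at 375 and 301 CPM against 70.1 and 64.0. PKD1, the large membrane protein polycystin-1, had log2 ratios of 2.42 and 2.28, and COL27A1, a fibrillar collagen, 1.91 and 2.19. The remaining 4, ACAP3, ARFGAP1, PILRB and LENG8, had log2 ratios between 1.77 and 2.16 in the 2 libraries.

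All 7 genes called lower are named here. RYBP, a Polycomb component, was at 46.6 and 57.1 CPM in members against 137 in comparison cells of both libraries. The histone gene HIST1H4C was at 48.9 and 76.1 CPM against 174 and 174. KDELR1, a receptor that returns proteins to the endoplasmic reticulum, the oligosaccharyltransferase subunit RPN1 and the prolyl isomerase PPIB had log2 ratios between -1.23 and -1.02. NUTF2, a nuclear import factor, had log2 ratios of -1.08 and -1.03. RPN1 and NUTF2 are the 2 that reached the minimum only through the comparison cells. IAPP, the beta cell hormone stored beside insulin, was at 60.6 and 53.3 CPM against 122 and 139, on 26 and 28 UMIs in members. Within the comparison cells IAPP was itself lower at an MT- share of 10 to 20% (51.6 and 79.3 CPM) than under 10% (140 and 163 CPM).

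**Figure D3:**
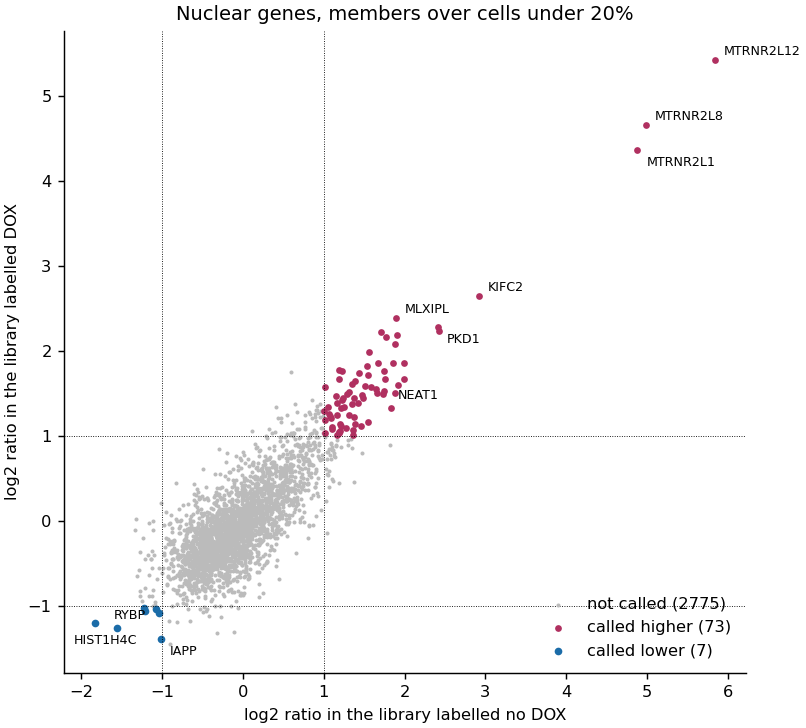
log2 ratio of each of the 2855 nuclear genes tested, mitochondrial-dominated over comparison cells, in the library labelled no DOX (horizontal) and DOX (vertical), with the 73 genes called higher in red, the 7 called lower in blue and dotted lines at the 2-fold limits. Most genes lie within the limits, and the 3 MTRNR2L genes stand apart at log2 ratios above 4.

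The genes called higher differed from all genes tested in length, base composition and exons. As a description, outside the MTRNR2L genes, the 70 had a median transcript length of 3726 bases, a GC content of 59.2% and 14.5 exons, against 2580 bases, 47.5% and 8 exons over all genes tested. These figures include genes that reached the minimum only through the members and so support nothing about the rest. Over all genes tested, split into 4 groups by each property, the ratios moved with all 3. By length the medians ran from -0.24 and -0.25 in the shortest group to 0.039 and 0.059 in the longest. In no DOX the median log2 ratio was -0.21 in the group lowest in GC content and 0.057 in the highest, and in DOX it was -0.19 and 0.065. By exons the medians were -0.24 and -0.25 in the lowest group and 0.13 and 0.17 in the highest. The part of these properties in the calls was not tested further.

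For the gene groups that follow, the background over all genes tested is 2.56% called higher, 0.245% called lower and 49.9% below 0 in both libraries, and in lists of this size counts of 0 or 1 call are near it. Of 86 cytosolic ribosomal protein genes, which code for the protein part of the ribosome, 82 were tested, 0 were called and 77 were below 0 in both libraries, with medians of -0.48 and -0.40 beside -0.11 over all genes. As a class they took 9.23% and 10.1% of the nuclear UMIs of members, against 12.6% and 13.3%. Of 26 genes of the endoplasmic reticulum translocon, which carries new secretory proteins into that compartment, 0 were called higher, 1 (RPN1) was called lower and 25 were below 0 in both libraries, with medians of -0.46 and -0.50. Against the comparison cells of low depth 12 translocon genes were below 0 in both. Translation factors had medians of -0.36 and -0.34 with 0 of 21 called. The nuclear-encoded subunits of the respiratory chain, which join the MT- gene products in the same complexes, were near the median of all genes or below it. Of 37 tested for complex I, 10 for complexes II and III, 11 for complex IV and 18 for complex V, 0 were called in either direction, and their medians ran from -0.14 to -0.41. For 44 mitochondrial ribosomal protein genes the medians were -0.28 and -0.22, and for 10 genes of mitochondrial import and the outer membrane -0.51 and -0.28, again with 0 called.

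Long non-coding RNAs, some of which stay in the nucleus, differed with the MT- share among members. Long non-coding RNA genes took 4.69% and 5.37% of the nuclear UMIs of members, against 3.28% and 3.59% in comparison cells. Of 3 nuclear-retained long non-coding RNAs tested, NEAT1, the scaffold of paraspeckles, was called higher, with 505 and 516 CPM against 152 and 183. MALAT1, which resides in nuclear speckles, was at 34312 and 40205 CPM against 22836 and 25455, a log2 ratio of 0.59 and 0.66. These sums were carried by members with MT- shares under 70%. From 70% on MALAT1 stood at 15056 and 19326 CPM, below the comparison cells, and from 70 to 90% all long non-coding RNA genes stood at 26156 and 30765 CPM, against 32268 and 35462 CPM in cells under 10%. At 150 UMIs per cell the median member held 2 MALAT1 UMIs in each library and the median comparison cell 3. The imprinted transcript KCNQ1OT1 had log2 ratios of 0.40 and 1.34. Of 24 splicing regulators tested, 1 (LUC7L3) was called higher, where 2.56% of all genes tested were, with medians of 0.28 and 0.14.

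INS, SST and GCG, the main hormone transcripts, were in the members within a factor of 2 of the comparison cells in mean level, and were far more even from cell to cell. INS stood at 195782 and 180908 CPM in members against 163781 and 160135 in comparison cells, SST at 19951 and 18056 against 31665 and 24526, and GCG at 3659 and 3862 against 4635 and 5054. To compare single cells of unequal depth, each was thinned at random to 150 UMIs outside the MT- genes, which left out 8 members in no DOX and 3 in DOX. SST, the hormone of delta cells, then had a median of 3 UMIs in members of no DOX, with quartiles of 2 and 4 and a 95th percentile of 7. In comparison cells the median was 0 and the 95th percentile 36, since a minority of cells held most of it. In DOX the members had a median of 2 with a 95th percentile of 6, and the comparison cells a median of 0 with a 95th percentile of 30. The variance of SST over cells was 2.15 and 3.28 times its mean in members and 28.7 and 28.4 times in comparison cells, where counting alone gives 1. For GCG, the hormone of alpha cells, the ratio was 1.79 and 1.36 in members against 14.1 and 14.4. For INS it was 2.16 and 2.55 against 8.57 and 8.14.

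At 300 UMIs per cell the share of members with SST at 5% or more of the UMIs was 1.74% (0.801 to 3.29) in no DOX and 1.66% (0.832 to 2.95) in DOX, against 16.2% and 12.4% of comparison cells. The share with INS at 10% or more was 93.6% and 90.8% of members against 69.3% and 70.6%. GCG at 1% or more was seen in 10.3% and 10.1% of members against 7.4% and 7.09%. A UMI of FEV was seen in 20.2% and 12.2% against 16.7% and 14.7%. For these shares, 516 of 908 members in no DOX and 662 of 867 in DOX were deep enough. With all UMIs kept, the GCG order was the opposite, with 5.18% and 5.31% of members against 7.17% and 6.84%. Without thinning, every member of both libraries held INS, with at least 19 UMIs in no DOX and 23 in DOX, and 99.7% and 99.5% held SST. The same was seen in comparison cells, which all held INS, with at least 19 and 13 UMIs, and of which 99.93% and 99.96% held SST. Droplets also take up RNA free in the suspension, so the same counts were read in comparison cells with at least 2 SOX9 UMIs, a duct and progenitor gene. These 293 and 323 cells held at least 68 and 52 INS UMIs each, with medians of 369 and 306, against medians of 62 and 69 in members. In SST they held medians of 23 and 17 UMIs, against 7 and 7 in members. As counts per droplet, the hormone transcripts of a median member were thus below those of a median SOX9-positive cell. As a part of the RNA, INS was higher in members. At 300 UMIs per cell 27.6% and 20.1% of the SOX9-positive cells held INS at 10% or more, and at 150 UMIs their medians were 4 and 3 INS UMIs against 31 and 27 in members. Some SOX9-positive cells also held INS at the level of beta cells, with upper quartiles of 3309 and 2148.5 UMIs. How much of the hormone RNA in members was free RNA was not tested.

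**Figure D4:**
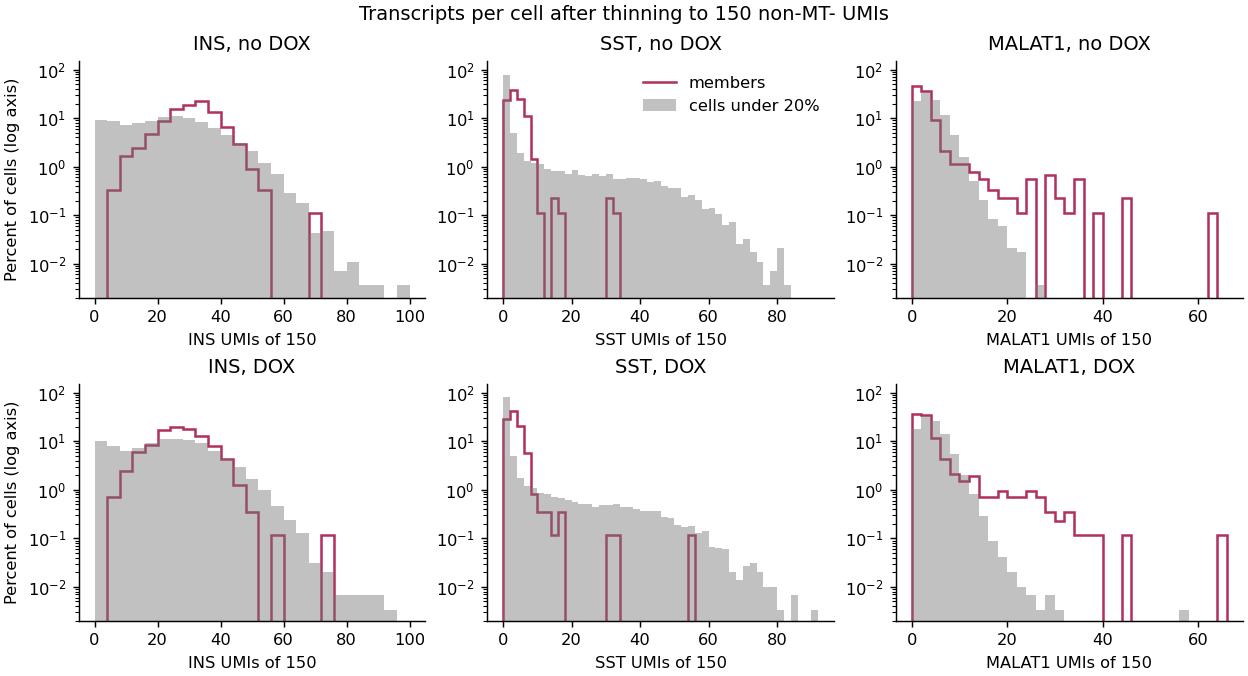
Percent of cells (vertical, log axis) by the number of INS, SST or MALAT1 UMIs among 150 UMIs outside the MT- genes, with mitochondrial-dominated cells as red outlines and comparison cells as grey fill, in the library labelled no DOX (top) and DOX (bottom). SST of the members falls off within about 10 UMIs in nearly all cells while comparison cells run past 60, and MALAT1 has the longer tail in members.

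The members were not of 1 kind. MALAT1 was less even in members than in comparison cells, with a variance of 10.6 and 9.72 times its mean in members against 1.89 and 1.83 in comparison cells. For MTRNR2L12 the ratio was 1.8 and 2 against 1.03 and 0.99, and for NEAT1 1.45 and 1.31 against 1.07 and 1.09. In comparison cells MTRNR2L12 had means of only 0.0238 and 0.0219 UMIs per cell, and NEAT1 0.0223 and 0.0274. At such means the ratio stays near 1 unless few cells hold most UMIs, so evenness could hardly be compared for these 2 genes. MTRNR2L12 per nuclear UMI also depends on the MT- share, by which the members were chosen. As counted, the median member held 4 and 6 MALAT1 UMIs and the 95th percentile was 40.3 and 129, with up to 720 and 547, while the median comparison cell held 344 and 338. The members were therefore described on both sides of an MT- share of 70%, a bin edge used throughout. Of the members in no DOX 232 lay under 70% and 676 at or above it, and in DOX 346 and 521. Under 70%, MALAT1 stood at 52209 and 51949 CPM, and at or above it at 15056 and 19326. NEAT1 stood at 813 and 714 CPM under 70%, and at 174 and 164 CPM from 70% on, close to the 152 and 183 of comparison cells. Among members, a NEAT1 level well above that of comparison cells was thus seen in those under 70%. It was not particular to members, since cells of 30 to 50% stood at 840 and 1054 CPM.

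Between the 2 sides of 70%, 2947 nuclear genes were tested, and 52 were called higher under 70% (1.76%) and 6 lower (0.204%). Intervals were clear of 0 in both libraries for 36 of the 52 and 5 of the 6. Members from 70% on held only 206826 and 189126 other UMIs in all, so levels there rest on few UMIs. Except for NEAT1 and MALAT1, whose levels are given above, the genes named next are not marked by interval. Nor is it marked which of them reached the minimum through 1 side only, so their calls support nothing about their lists. Of the lists, 2 of 3 nuclear-retained long non-coding RNAs (NEAT1 and MALAT1), 2 of 10 immediate early genes (FOSB and KLF6), 1 of 18 ATF4 targets and unfolded protein response genes (HERPUD1) and 1 of 14 antioxidant enzymes (GPX3) were called higher. All 3 MTRNR2L genes, 1 of 42 mitochondrial ribosomal protein genes (MRPS35) and 1 of 5 small nucleolar RNA host genes (EPB41L4A-AS1) were called lower. The split sets MT- against other UMIs, so a fall of the MTRNR2L genes per nuclear UMI was largely fixed by it. Per cell, the median of MTRNR2L12 was 3 UMIs under 70% and 4 from 70% on in no DOX, and 2 and 3 in DOX. No cytosolic ribosomal protein gene of 82 was called, with medians of -0.25 and -0.54 beside 0.0013 and -0.014 over all genes. Hormone counts were nearest to even at high MT- shares. The variance of SST was 1.30 and 1.73 times its mean from 70% on and 3.78 and 7.58 times under it, and for INS the values were 1.55 and 1.44 against 4.92 and 4.17.

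Seen along the whole range of MT- share, nuclear-retained RNA did not rise steadily into the members. MALAT1 climbed from 22544 and 25217 CPM in cells under 10% to 86414 and 90519 CPM in cells of 30 to 50%, just outside the members. It then fell to 52209 and 51949 CPM from 50 to 70% and to 15142 and 19400 CPM from 70 to 90%. The summed cytosolic ribosomal protein transcripts ran the opposite course, with 126763 and 134790 CPM under 10%, 65614 and 71074 CPM from 30 to 50%, and 100945 and 123725 CPM from 70 to 90%. INS reached its lowest level from 20 to 30%, at 95455 and 115986 CPM, and stood at 203739 and 178527 CPM from 70 to 90%. The MTRNR2L genes rose without a turn, from 248 and 241 CPM to 18945 and 15708 CPM. The bins themselves order cells by MT- against other UMIs, so this rise is a description. MLXIPL rose up to the 30 to 50% bin in both libraries, with 469 and 430 CPM there, and beyond it the libraries differed in order and the intervals of neighbouring bins overlapped in no DOX. The bin from 90% on held 32 and 6 cells and is not read.

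**Figure D5:**
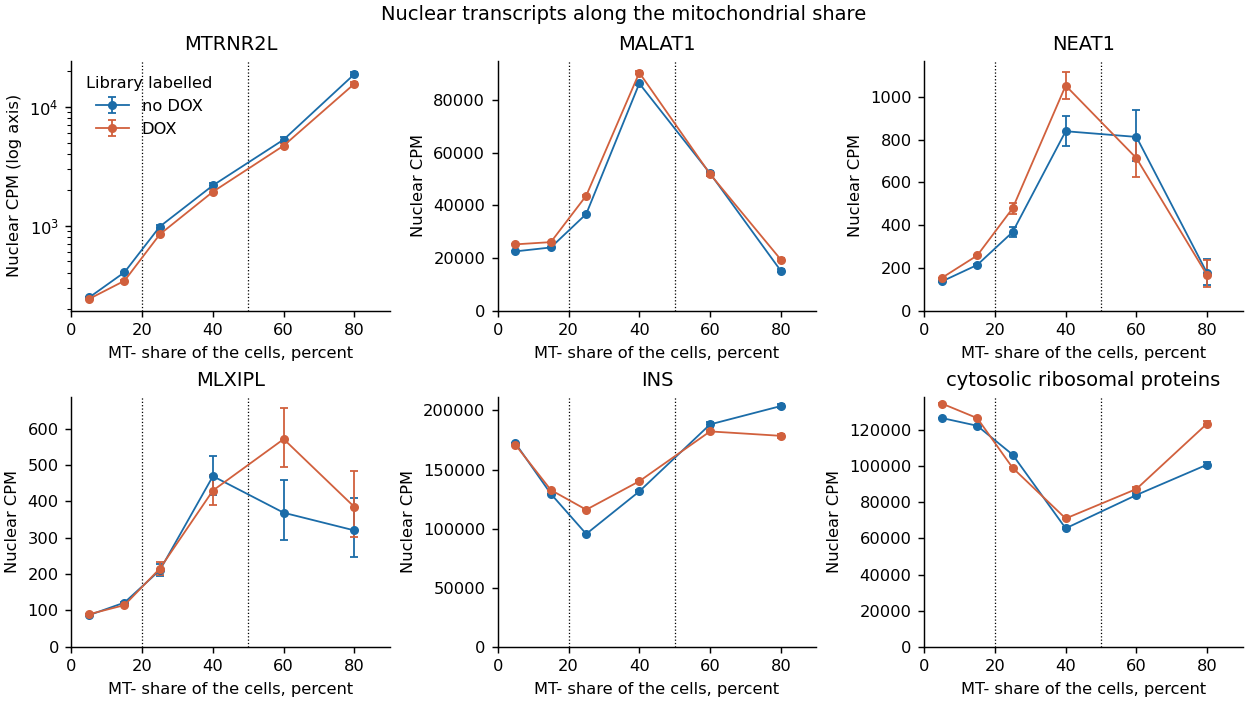
Summed nuclear CPM of the MTRNR2L genes (log axis) and of MALAT1, NEAT1, MLXIPL, INS and the cytosolic ribosomal protein genes, by bin of MT- share up to 90%, for both libraries, with exact Poisson 95% intervals as bars and dotted lines at 20% and 50%. MALAT1 and NEAT1 are high between 30 and 70%. From 70 to 90% MALAT1, at 15142 and 19400 CPM, is below its level under 10%, and the ribosomal protein transcripts have risen again.

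The number of genes seen at equal depth was nearly the same. At 300 UMIs outside the MT- genes, members showed a median of 198 and 204 genes per cell and comparison cells 204 and 206. Markers of other cell types were low in both groups. The 6 duct markers summed to 184 and 156 CPM in members against 272 and 229, and the 5 proliferation markers to 48.9 and 43.8 against 61.5 and 59.1. Mesenchymal markers summed to 9.32 and 5.71 CPM against 8.98 and 10.8, acinar markers to 2.33 and 3.81 against 3.08 and 4.17, and all endothelial, immune and red cell markers were at 0 UMIs in the members. In comparison cells these last 3 groups summed to between 0.017 and 0.111 CPM. The members held 429356 and 525362 other UMIs in all, so a count of 0 says nothing about absence.

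Between the libraries, the heat shock gene HSPA1A was lower under DOX in members and in comparison cells alike. It stood at 83.9 CPM (58.7 to 116) in members of no DOX and at 28.6 CPM (16.0 to 47.1) in those of DOX, on 36 and 15 UMIs, a log2 ratio of -1.55 (-2.53 to -0.65). In comparison cells the levels were 106 and 31.5 CPM, a log2 ratio of -1.75. MLXIPL differed in members by a log2 ratio of 0.54 (0.24 to 0.84), DOX over no DOX, against 0.042 (0.023 to 0.061) in comparison cells. The members of the 2 libraries also differed in MT- share. From 50 to 70% MLXIPL stood at 368 CPM (293 to 457) in no DOX and 571 (493 to 658) in DOX. From 70 to 90% it stood at 320 CPM (246 to 408) and 384 (301 to 484), with overlapping intervals. With 1 library each, condition and library cannot be told apart.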

How the data were processed

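UMI counts per gene and barcode from 2 10X Genomics libraries were used as deposited by the authors, without normalization. The matrix headers name Cell Ranger 3.0.2, the submitters' processing notes also list kallisto and bustools, and the build is GRCh38. Totals were 550240855 UMIs over 30288 barcodes (no DOX) and 520849221 over 31817 (DOX).

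Members and gene lists were chosen with earlier results of these data known. MT- genes were taken out of the totals, and UMIs of each group were summed per library. Genes with a mean of at least 50 nuclear CPM over the 4 sums were tested. Calls needed a 2-fold difference in the same direction in both libraries. The genes named were the 12 with the largest smaller ratio in each direction, the MT- and MTRNR2L genes, SOX9, and any gene of the lists within its list, called or not. Intervals were exact Poisson for levels, Clopper-Pearson for shares and conditional binomial for ratios, at 95%, and covered counting error only. With 1 library per condition there was no test across samples. The calculation was tested on simulated data for members over comparison cells, where 96.11% of intervals over 2697 genes held the true value and 0 of 2534 unchanged genes were called. The simulated counts were Poisson draws from 1 profile, the model that the intervals assume, so this checked the calculation only. Real counts, such as those of MALAT1, varied more from cell to cell, so the coverage need not hold for them. Doublets called by Scrublet (scanpy 1.11.5) were kept and left out as an alternative. Other tools were Python 3.11.15, numpy 2.4.6, scipy 1.17.1, pandas 2.3.3, biopython 1.88 and matplotlib 3.10.9. Of 33694 genes, 32807 were matched to GENCODE 44 for length, GC content and exons. The stretch of MTRNR2L8 is not reported here.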

Additional observations from a re-analysis of the deposited data

Results flagged for a closer look

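Below the minimum of 1000 UMIs, 232 of 946 barcodes also had an MT- share of at least 50%, with 137 in no DOX and 95 in DOX, and they entered no comparison. MT-ND3, a complex I subunit, took a larger share of MT- UMIs in members of no DOX (log2 ratio 0.0403) and a smaller one in DOX (-0.0387), the 1 MT- gene with opposite directions. Among lists with at least 5 tested genes, the median log2 ratio of 3 also lay on opposite sides of 0 in no DOX and DOX. It was -0.129 and 0.016 for 6 tested genes of mitochondrial RNA synthesis and processing, -0.0901 and 0.136 for 6 tested apoptosis regulators, and 0.028 and -0.0291 for 12 tested glycolysis genes. The smaller list of p53 targets, with 4 tested genes, had 0.274 and -0.024. With 1 library each, none of these differences between libraries was tested.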

How the results depend on the processing

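No paired analysis was possible because each condition had 1 library. Where the cause of a change is not given by the setting itself, the cause was not tested. Values are given for no DOX and then DOX. With members taken from 40% on, their share was 3.474% and 3.465%, the fold of other UMIs 43.6 and 25.1, and 132 genes were called higher and 3 lower. From 70% on these were 2.28% and 1.66%, 56.15 and 42.4, and 40 and 12, with 33 and 5 of the same genes, and NEAT1 in DOX turned to a log2 ratio of -0.158. With at least 2000 UMIs the share was 1.08% and 1.09%, the fold 27.1 and 17.4, and 11 genes were lower. With no UMI minimum the share was 3.45% and 3.02% and the fold 51.0 and 35.8. Without Scrublet doublets the share was 3.95% and 3.52%, the fold in no DOX 42.6, 11 genes were lower, and MT-CO2 in no DOX turned to 0.0373. With every cell weighted equally MT-CO2 in no DOX was 0.0469 and 43 genes were higher. Against comparison cells with no more other UMIs than the 95th percentile of the members, which were still deeper than most members, 101 genes were higher and 67 lower, with 48 and 3 of the same genes, 3 MT- genes held a smaller share, 12 translocon genes were below 0, lncRNA log2 ratios were 1.105 and 1.28, MT-ND6 turned to -0.0939 and -0.315, and in DOX MT-CO1 turned to 0.153, MT-ATP8 to -0.740, MT-ND3 to 0.147 and MT-ND4L to -0.175. Without hormones and MTRNR2L genes in the total, the median of all genes shifted by 0.085 and 0.073 on the log2 scale and 120 genes were higher and 4 lower, with 70 and 3 of the same genes. Calls higher and lower were 125 and 30 in no DOX alone, 132 and 21 in DOX alone, 230 and 12 from 20 CPM on, 16 and 1 from 200 CPM on (13 translocon genes below 0), and 224 and 117 at a log2 ratio of 0.58. Thinned to 150 UMIs, genes per cell in no DOX were 0.963 of the comparison cells and INS at 10% or more was seen in 96.1%. At 600 UMIs INS was 89.0% and 86.2% and SST in DOX 0.337%. Without thinning the gene ratio was 0.0543 and 0.0759, and INS in DOX 93.9%. Leaving out barcodes found in both libraries, chosen after seeing the data, moved 4 of 150 values and reversed 0.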

Other observations

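Between members and comparison cells, the stress lists named here held no called gene. Of all genes, 2.56% were called higher and 0.245% lower, so counts of 0 in lists this small say little. Of the tested genes, 0 of 18 ATF4 targets and unfolded protein response genes were called in either direction, 0 of 8 heat shock genes, 0 of 9 immediate early genes, 0 of 4 p53 targets, 0 of 6 metallothioneins and 0 of 14 antioxidant enzymes. The first list had medians of -0.46 and -0.20, with 12 of its 18 genes below 0 in both libraries and 3 above. Within it, the stress transcription factor ATF4 had log2 ratios of 1.14 and 0.75, DDIT3 had 0.81 and 0.71, and the chaperone CALR had -1.10 and -0.95. Of 12 glycolysis genes, with list medians of 0.028 and -0.029 and 5 genes above and 5 below 0 in both libraries, 2 were called higher against 2.56% of all genes, PFKP, a phosphofructokinase, with 1.37 and 1.07, and ENO2, an enolase, with 1.37 and 1.01. Both reached the minimum of 50 CPM only through the members, so their calls support nothing about the list.

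Genes of the secretory granule had medians of -0.024 and -0.054 over 21 tested genes with 0 called. Of 12 endocrine transcription factors, 1 (MLXIPL) was called higher, against 2.56% of all genes. The medians of these 12 factors were 0.15 and 0.14, with 6 genes above 0 in both libraries and 3 below. Within the list, PAX4, which acts in beta cell development, was not called and had log2 ratios of 1.35 and 0.87. Of 12 histone genes tested, 1 (HIST1H4C) was called lower, against 0.245% of all genes.

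Scrublet marked 5.18% and 6.11% of the members as doublets in no DOX and DOX, and 27.7% and 27.6% of the comparison cells.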
